A study of Drosophila melanogaster with 4 samples.

Results

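In ovaries of Drosophila melanogaster, 364 regions carried peaks of H3K4me3 (histone H3 trimethylated on lysine 4) away from any annotated gene. They were selected on peak calls and position. Peaks of 4 lists, 1 per library, were merged when they shared at least 1 base, and a region on arms 2L, 2R, 3L, 3R or X was kept when 2 or more lists called it. It also had to lie more than 500 bp from every gene of the Ensembl annotation and to overlap no annotated transposable element. The 364 intergenic members made up 2.71% of the 13421 regions called in 2 or more lists, out of 26287 merged regions in all. The other classes of regions called in 2 or more lists were 7903 promoters (within 500 bp of a start site), 5023 gene bodies, 99 transposable elements and 32 regions near a gene. All 364 members also lay more than 500 bp from every RefSeq gene of the same assembly.

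The libraries came from ChIP-seq (chromatin immunoprecipitation followed by sequencing) with 2 replicates of lid KD ovaries and 2 of control ovaries. In lid KD females MTD-Gal4, a driver active in germ cells only, produced a hairpin RNA that targets lid, which encodes an H3K4me3 demethylase. Control females carried the MTD-Gal4 driver without a hairpin. Chromatin came from pairs of dissected ovaries, which also hold somatic follicle cells without the hairpin. A change in the share of a cell type and a change of the mark per cell cannot be told apart in such bulk samples. The labels give females of 3 days for all samples, while the extraction protocol gives virgins of 0 to 1 day. The published ChIP methods give yet another age, so the age of the females is uncertain. H3K4me3 is laid down mostly around active promoters, and Lid removes it. Outside genes it is known from unannotated start sites, active enhancers and expressed repeats, and in the germ line the telomeric retrotransposon HeT-A is transcribed from copies at chromosome ends.

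The sequences of 6 members that the results turn on are shown here, as the plus strand of the dm6 assembly within 150 bases of the summit of the strongest peak, cut at the edges of the region. The X tip member had the highest fold enrichment of all members and matched HeT-A over its whole length. The next 2 members were called in both control lists and in neither lid KD list. The last 3 had peaks in both lid KD lists and no ranked peak in control libraries. Capitals mark the searched motifs GAGAG (the GAGA factor motif) and CAGGTAG (the Zelda motif) on either strand, so that CTCTC is a minus-strand match. In the Tengl4 member alone, capitals mark 124 bases that matched the transposon Cr1a at 95.2% identity.
X tip member, chrX:54167-54466: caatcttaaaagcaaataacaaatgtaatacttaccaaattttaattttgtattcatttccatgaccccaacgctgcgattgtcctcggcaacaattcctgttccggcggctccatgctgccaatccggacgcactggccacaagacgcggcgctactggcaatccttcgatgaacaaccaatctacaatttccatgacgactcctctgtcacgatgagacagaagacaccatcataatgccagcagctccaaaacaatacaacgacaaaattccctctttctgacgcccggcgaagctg
CG12617 member, chr2L:20292332-20292628: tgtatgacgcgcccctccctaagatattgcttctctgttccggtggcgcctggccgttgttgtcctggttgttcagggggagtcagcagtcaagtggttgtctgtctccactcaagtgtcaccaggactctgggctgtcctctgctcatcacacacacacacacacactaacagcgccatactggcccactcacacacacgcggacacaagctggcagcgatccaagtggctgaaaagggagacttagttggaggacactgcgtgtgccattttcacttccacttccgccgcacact
Tengl4 member, chr3R:10957783-10958072: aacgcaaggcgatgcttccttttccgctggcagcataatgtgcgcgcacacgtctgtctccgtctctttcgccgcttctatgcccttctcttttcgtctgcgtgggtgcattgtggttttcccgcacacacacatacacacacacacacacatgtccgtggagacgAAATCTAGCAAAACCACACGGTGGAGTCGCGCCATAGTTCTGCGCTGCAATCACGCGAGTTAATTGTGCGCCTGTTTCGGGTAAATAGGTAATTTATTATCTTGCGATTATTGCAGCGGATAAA
CG42749 member, chrX:5278378-5278677: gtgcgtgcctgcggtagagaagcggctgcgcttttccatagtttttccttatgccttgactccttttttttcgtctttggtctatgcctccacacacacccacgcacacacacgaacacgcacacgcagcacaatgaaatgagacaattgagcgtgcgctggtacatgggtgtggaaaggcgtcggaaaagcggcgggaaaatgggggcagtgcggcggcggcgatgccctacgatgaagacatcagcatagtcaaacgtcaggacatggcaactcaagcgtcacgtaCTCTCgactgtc
CG15820 member, chr3L:2174868-2175134: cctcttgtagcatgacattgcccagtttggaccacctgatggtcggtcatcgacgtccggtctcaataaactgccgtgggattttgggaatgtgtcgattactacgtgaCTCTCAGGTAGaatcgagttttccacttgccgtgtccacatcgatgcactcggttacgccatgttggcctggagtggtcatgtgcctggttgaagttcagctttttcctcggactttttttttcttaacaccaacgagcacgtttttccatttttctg
CG41128 member, chr3R:3789235-3789405: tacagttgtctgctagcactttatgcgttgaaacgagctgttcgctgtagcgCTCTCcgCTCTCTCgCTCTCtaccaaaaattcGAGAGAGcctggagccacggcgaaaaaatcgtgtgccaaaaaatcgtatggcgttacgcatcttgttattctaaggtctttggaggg

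The CG12617 member and the X tip member held none of the 7 motifs searched in the printed bases. The CG15820 member joins a minus-strand GAGAG to a CAGGTAG, overlapping by 1 base, and the CG41128 member holds 6 GAGAG matches, some of them overlapping, and aligned to the DNA transposon 1360 at 95.2% identity.

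The lid KD lists held 12832 and 13501 peaks and the control lists 12087 and 25302. The genome background, the number of fragments that the peak caller took as the floor at every base, was 55.5 and 56.6 in lid KD libraries and 60.1 and 48.4 in control libraries. Over the 8779 regions called in all 4 lists with solved pileups, the summit pileups of the lid KD pair differed by 0.997 times the counting error (a robust SD), so that pair was counted as 1 sample and the tests used 3 samples. The control pair differed by 2.25 counting errors. The published methods describe all 4 libraries as biological replicates from separately dissected ovaries, and a count of 4 samples was tried as an alternative. Promoter peaks at 6 of 6 follicle cell markers and 4 of 7 germ line markers stood in all 4 lists, vas had none, and aub, a germ line Piwi gene, was called in both lid KD lists (folds of 1.98 and 2.21) and in neither control list. The lid KD lists called 6 and 6 of the 7 germ line markers and the control lists 5 and 4. Of 4 neuronal markers elav had a peak in all 4 lists, nSyb in 3 of them, with folds of 5.89 and 5.82 in lid KD libraries and 5.48 in control 2, and brp in control 2 alone. The part of neurons or other cells in the results was not tested. None of 4 muscle markers and none of 4 testis markers, of which 3 were matched by name, had one in any list. The start site region of lid (Kdm5 in the annotation) had fold enrichments of 6.43 and 6.28 in lid KD and 5.96 and 6.84 in control libraries, which gives no measure of the knockdown.

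The members were short and weak. Their width ranged from 161 to 3354 bp with a median of 414.5 bp, and together they covered 174 kb. Their median distance to a gene was 2287.5 bp, 67 lay more than 10 kb away and the most distant lay 305297 bp away. Of the 364, 297 stayed below 3-fold enrichment in every list that called them and 10 exceeded 5-fold in any list. The 2 members closest to the distance limit stood 507 bp from sprt and 509 bp from CG44476, and the 2 regions just outside it stood 499 bp from glec and 489 bp from nrv1. The member beside sprt had fold enrichments of 1.79 in lid KD 2 and 1.64 in control 2, whereas the region beside nrv1 had 2.18 and 2.13 in lid KD and 1.50 and 2.84 in control libraries.

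Membership leaned most on control 2. The lid KD lists called 229 and 256 members and the control lists called 263 and 339. All 4 lists called 132 members (36.3%, against 65.5% of all regions called in 2 or more lists), 3 lists called 95 and 2 lists called 137. Without the list of control replicate 2, 251 regions met the rule. A further 1910 intergenic regions stood in 1 list only, 1835 of them in control 2.

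**Figure D1:**
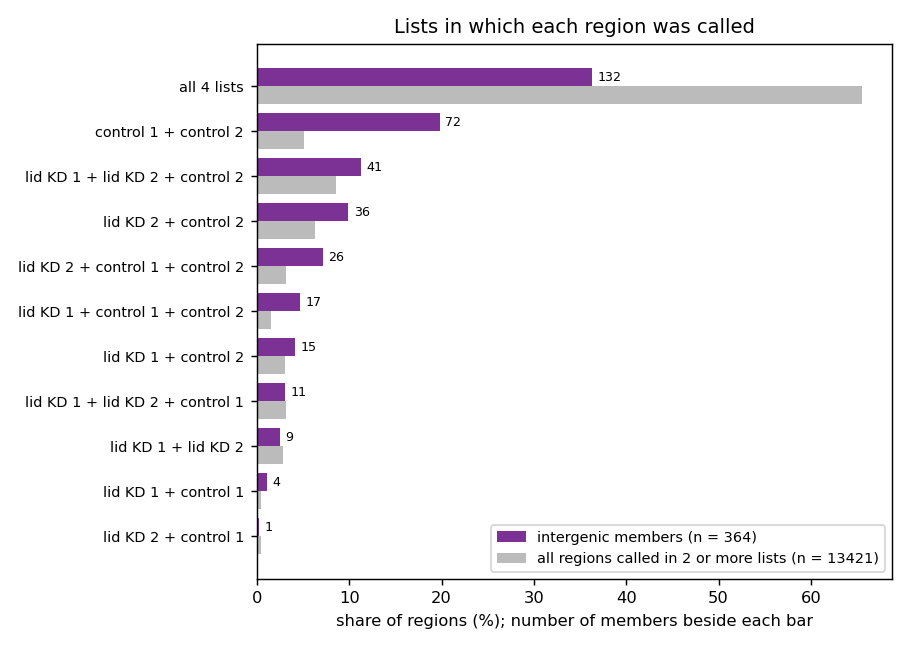
Share of regions (%) called in each combination of lists, for the 364 intergenic members (purple, with the number of members) and for all 13421 regions called in 2 or more lists (grey). The 72 members seen in both control lists alone make up 19.8% of members, and the 9 seen in both lid KD lists alone make up 2.47%.

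The share of members called in lid KD ovaries alone was close to that of all regions, and the share called in control ovaries alone was larger. Both lid KD lists and neither control list called 9 members (2.47%), against 2.79% of all regions called in 2 or more lists. Both control lists and neither lid KD list called 72 members (19.8%), against 5.07% of all regions. That share was 8.48% in gene bodies, 1.94% in promoters and 25.3% over transposable elements. The calls also made the members, so these counts are a description and carry no test. The 9 lid KD members had a median width of 201 bp and a median GC content of 50.5%, and the 72 control members had 348 bp and 56.2%. The control members were faint, with median folds of 1.57 in control 1 and 2.14 in control 2.

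When a list is left out of the count of lists, its calls do not decide whether a region is called often enough. The regions were still merged and placed with the peaks of all 4 lists, so the shares are not wholly free of the rule. Among intergenic regions called in at least 2 of the other 3 lists, lid KD 1 called 201 of 336 (59.8%), lid KD 2 210 of 318 (66.0%), control 1 186 of 287 (64.8%) and control 2 216 of 241 (89.6%). For promoters those shares lay between 91.3% and 95.7%, and for gene bodies they were 69.4%, 78.5%, 56.4% and 87.6% in the same order. The members were thus found again less often than promoters in each of the 4 libraries, and the 2 lid KD lists found intergenic regions again at lower shares than gene bodies while the 2 control lists did so at higher shares. The lid KD shares were taken over regions that include the 72 called in both control lists alone. The control shares were taken over regions that include the 9 called in both lid KD lists alone. These shares therefore partly restate the calls described above.

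Ranks were compared over the 132 members called in all 4 lists, which were 132 of 364 and the stronger ones. The percentile rank places a peak by its fold enrichment among the 12087 strongest peaks of its list, 100 being the strongest and 0 any weaker or missing peak. The median rank of these members was 32.8 and 33.6 in lid KD libraries and 39.3 and 41.3 in control libraries, and the medians of the groups did not overlap. The lid KD mean of 33.2 and the control mean of 40.3 ± 1.47 (SD, n = 2) differed by -7.09 points, with p = 0.333 in an exact two-sided permutation test, the smallest p that 3 samples allow. With the 4 libraries as separate samples p was also 0.333 (exact permutation), again the smallest possible. The difference was -3.68 points without control replicate 1, -5.52 without control replicate 2 and -1.87 when peaks were ranked within 10 classes of GC content. With the deposited lists at full length it was -17.0 points, where control replicate 2 has the longest list. In both of these rankings the exact permutation p was 0.667, so another labelling of the samples gave a difference at least as large.

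**Figure D2:**
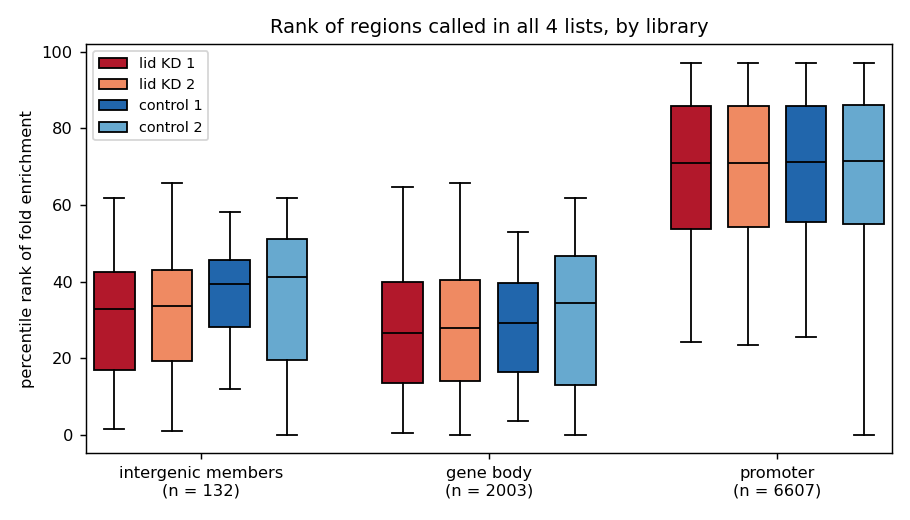
Percentile rank of fold enrichment for regions called in all 4 lists, by library, for 132 intergenic members, 2003 gene bodies and 6607 promoters. Boxes show quartiles with the median as a line, and whiskers reach the 5th and 95th percentiles. Promoter medians stay between 70.9 and 71.6 in every library, while member medians are 32.8 and 33.6 in lid KD and 39.3 and 41.3 in control libraries.

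Against promoters, the members ranked lower in every library. The median rank of members minus that of promoters was -38.1 and -37.4 points in lid KD libraries and -32.0 and -30.3 in control libraries. Its mean over the 3 samples was -33.4 points (p = 0.25, exact two-sided sign permutation, the smallest p possible). Gene bodies were nearer to the members, with median ranks of 26.6 and 27.8 in lid KD and 29.3 and 34.3 in control libraries.

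Single members moved in both directions. Of the 132, 8 ranked at least 10 points higher in both lid KD libraries than in both control libraries (6.06%, against 4.42% of all 8797 regions called in all 4 lists), and 14 ranked at least 10 points lower (10.6%, against 3.58%). With no margin, 19 ranked higher (14.4%, against 20.7%) and 53 ranked lower (40.2%, against 33.3%). At 10 points the shares in gene bodies were 9.04% higher and 8.99% lower. The counts depended on single libraries. Without control replicate 1, 39 of 176 ranked higher and 50 ranked lower (17.6% and 12.8% of all regions), and without control replicate 2, 14 of 148 ranked higher and 34 lower (10.2% and 10.8%). Without lid KD replicate 1 the counts were 10 higher and 35 lower of 158 (5.59% and 6.98% of all regions), and without lid KD replicate 2 they were 10 and 34 of 151 (5.23% and 6.40%).

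Summit coverage, the pileup at the summit over the genome background, gave no common direction. Its median over the 132 members was 2.15 and 2.19 times background in lid KD libraries and 2.07 and 2.93 in control libraries, so control 2 stood above the other 3. The lid KD minus control difference of the median was -0.18 on the log2 scale (p = 1, exact two-sided permutation test), and without control replicate 2 it was 0.08. By member, 14 had higher coverage in both lid KD libraries (10.6%, against 36.2% of all regions) and 29 had lower coverage (22.0%, against 4.51%). Gene bodies had 17.1% higher and 10.4% lower, and promoters 42.7% higher and 2.19% lower. Members were also narrower in lid KD ovaries: the median called width was 325 and 341.5 bp in lid KD libraries and 391 and 409 bp in control libraries (p = 0.333, exact two-sided permutation test, the smallest possible). The width was larger in both lid KD libraries for 9 members (6.82%, against 18.4% of all regions) and smaller for 53 (40.2%, against 15.1%). Gene bodies had 10.9% larger and 21.2% smaller, and promoters 21.0% larger and 12.5% smaller. By region, the median width difference was -38.5 bp in members, -42 bp in gene bodies and 5 bp in promoters, so narrowing was not particular to members.

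Base composition moved with control 2. Members had a median GC content of 53.9%, against 42.2% for the 5 arms, 50.9% for promoter regions and 56.1% for gene body regions. Across the 132 members, the log2 ratio of mean lid KD coverage to control 2 coverage went down with GC content (Spearman's rho -0.53), and the ratio to control 1 less so (rho -0.15). The trend of control 2 was not particular to members. Over all 8779 regions, the ratio of control 2 to each lid KD library rose with GC content (rho 0.598 and 0.595). The ratio of control 2 to control 1 did so too (rho 0.598). These are correlations over regions that share their libraries, given as a description. The median log2 ratio to control 2 was -0.60 in the 32 members above 55% GC and -0.38 in the other 100, while to control 1 it was 0.09 and 0.11. Of the 72 members called in control lists alone, 42 exceeded 55% GC, as did 2 of the 9 called in lid KD lists alone and 138 of all 364 members. The part of GC content in the differences between groups was not tested.

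**Figure D3:**
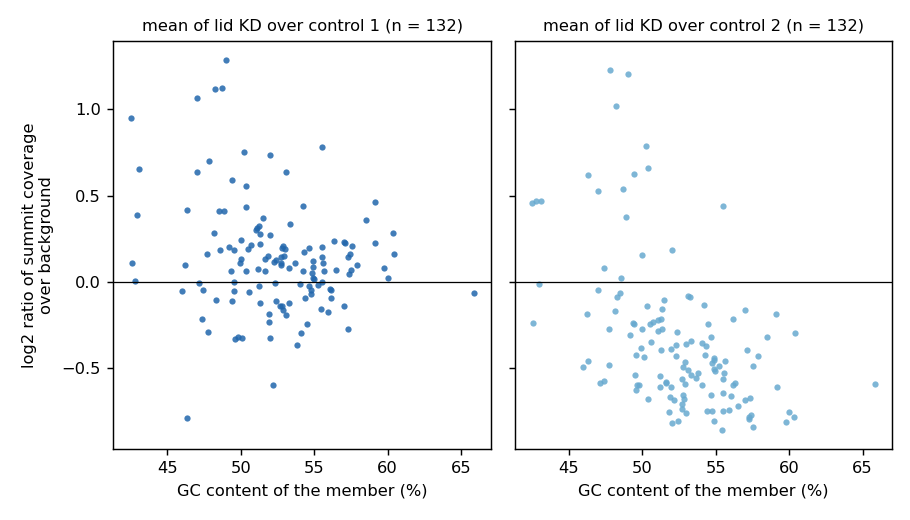
Log2 ratio of summit coverage over background, mean of the lid KD libraries over control 1 (left) and over control 2 (right), against the GC content (%) of each of the 132 members called in all 4 lists. Points lie on both sides of 0 for control 1 (87 of 132 above) and mostly below 0 for control 2 (18 of 132 above), lowest at high GC.

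The strongest members sat at chromosome ends and matched HeT-A, the telomeric retrotransposon of Drosophila. The X tip member (chrX:54089-54784), 54088 bp from the end of the arm and 67709 bp from the nearest gene, lncRNA:CR40469, had fold enrichments of 31.2 and 30.0 in lid KD and 20.2 and 22.9 in control libraries. Its summit pileups were 1847 and 1770 fragments in lid KD and 1232 and 1129 in control libraries, and its rank was at least 99.9 in all 4. It matched an annotated HeT-A copy over 718 aligned bases at 90.7% identity, although no transposable element is annotated where it lies. At the other such end, chr2R:25281274-25281852 lay 5084 bp from the end of 2R and matched HeT-A at 97.6% identity. Its folds were 12.2 and 13.4 in lid KD and 5.87 and 8.79 in control libraries, ranks of 95.8 and 97.6 against 81.8 and 87.0. In both members the lid KD values stood above the control values without overlap in fold.

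There were 5 members with a HeT-A match, 3 of them called in all 4 lists, and all 3 ranked higher in both lid KD libraries, the X tip member by 0.01 points. The member of the 3 not described above was weaker, with folds of 3.15 and 2.90 in lid KD and 2.01 and 1.97 in control libraries. With no margin, 20.7% of all regions called in all 4 lists ranked higher, and 14.4% of members. The remaining 2 HeT-A matches, at chrX:52537-53184 and chrX:53688-53946, had folds of 1.96 and 2.02, and of 2.63 and 2.70, in lid KD libraries. They had 3.88 and 2.49 in control 1 and no peak in control 2. In rank the groups overlapped in both members, with 27.8 and 29.2 in lid KD libraries and 63.1 and 0 in control libraries for chrX:52537-53184, and 43.2 and 44.4 against 48.9 and 0 for chrX:53688-53946. The reads kept by the authors aligned to 1 place only, and the effect of this on repeats was not tested.

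More widely, 51 members (14.0%) matched an annotated transposable element elsewhere in the arms over at least 100 bases at 80% identity or more, although the selection had removed regions overlapping an annotated one. This share was 0.418% in promoters and 1.47% in gene bodies. The matched elements were led by the LTR retrotransposon gypsy8 with 7 members, HeT-A with 5, and Cr1a and Rt1b with 4 each. Of the 51, 16 (31.4%) were called in control lists alone, against 56 of the 313 others (17.9%), and 1 in lid KD lists alone. Repeated windows of 50 bases, the length of the reads, occurred in 53 members (14.6%), in 1.53% of promoters and in 1.73% of gene bodies. Members with a match lay far from genes, at a median of 14317 bp, against 1817 bp for the others. In an alternative chosen after seeing the data, the 66 members with a match or a repeated window were left out. Then 298 members were left, 105 of them called in all 4 lists, of which 6 ranked at least 10 points higher in lid KD libraries (5.71%, against 4.42% of all regions) and 10 lower (9.52%, against 3.58%).

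Of the other 8 members of highest mean rank, 7 lay on 2R and 5 held no repeated window. Near the centromere end, chr2R:997844-998661, 46592 bp from CG40498, had folds of 7.75 and 8.50 in lid KD and 3.34 and 3.53 in control libraries, so lid KD lay above control without overlap. The member chr2R:4471852-4472421, 792 bp from Gprk1 and with 55.7% of its 50-base windows repeated, had 10.2 and 9.67 in lid KD and 4.76 and 6.89 in control libraries. In contrast, chr2R:14146519-14146976, between the microRNA gene mir-989 and Rcd1, had 4.35 and 4.08 in lid KD and 3.62 and 5.16 in control libraries, and its groups overlapped. Groups also overlapped in rank at chr2R:13042161-13042913 beside CG13323, at chr2R:4656654-4657577, at chr2R:25285199-25286002 and at chr3R:3621595-3622074 near Alg-2. The member chr2R:10961437-10962255 lay 14342 bp from the end of lncRNA:CR45228. It lay 15701 bp from the end of luna, a gene of the KLF family of transcription factors. Its rank was 69.4 and 70.6 in lid KD and 55.5 and 63.5 in control libraries.

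**Figure D4:**
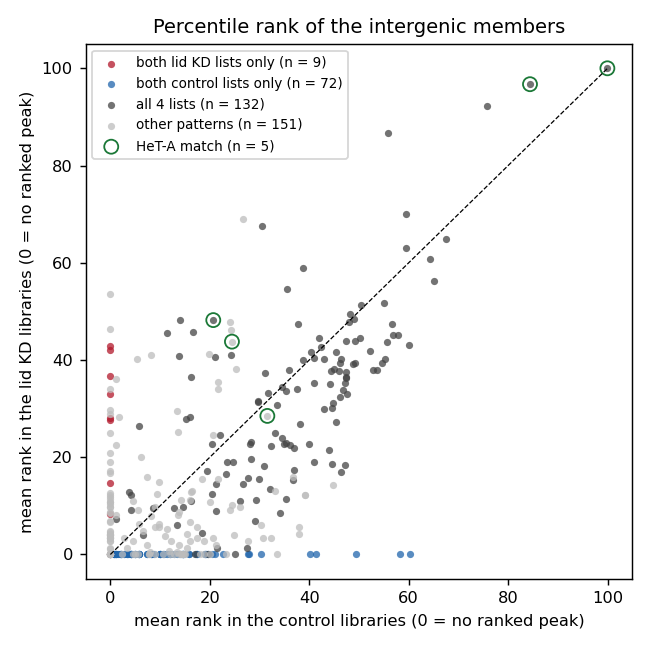
Mean percentile rank of each of the 364 members in the lid KD libraries (vertical) against the control libraries (horizontal), coloured by the lists that called it, with a dashed line of equality. A rank of 0 means no peak among the 12087 strongest of a list. The 5 HeT-A matches are ringed, and the X tip member stands alone at 100.

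The members lost from lid KD lists included unique single peaks. The CG12617 member (chr2L:20292324-20292628), 2065 bp upstream of the start of CG12617, had no peak in either lid KD library, folds of 3.14 and 4.80 in control libraries and ranks of 55.5 and 65.2 there. Its summit pileups were 191 and 236 fragments in control libraries, or 3.18 and 4.88 times background, and none of its 50-base windows recurs. The Tengl4 member (chr3R:10957568-10958072), which carries the Cr1a stretch, had none in lid KD libraries and folds of 2.85 and 4.62 in control libraries. Further large falls were chr2R:4674671-4675181 near CG17883 with control folds of 1.98 and 3.95, and chr3L:6903009-6903294 near Prat2 with 2.14 and 2.73. For each of these 4 a peak was missing in both lid KD libraries, so no fold change was formed.

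The members gained in lid KD lists included a pair on X. The CG42749 member (chrX:5278017-5278699) had folds of 3.50 and 3.51 in lid KD, no peak in control 1 and 2.19 in control 2. Its called widths were 679 and 681 bp in lid KD and 208 bp in control 2, and its pileups 197 and 201 against 107 fragments. The next member, chrX:5279059-5279341, had folds of 2.65 and 2.46 in lid KD libraries and no peak in either control library. Both lie between CG15465 and CG42749, in unique sequence, 33.5 and 32.8 kb before dhd, which encodes the thioredoxin Deadhead of the egg. A relation to dhd was not tested.

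A second pair lay between lncRNA:CR46243 and Myc, 5' of Myc, the growth-promoting transcription factor. The member chrX:3368223-3368775, 4384 bp before Myc but nearer to lncRNA:CR46243, had folds of 2.76 and 2.97 in lid KD, none in control 1 and 2.13 in control 2. The member chrX:3370653-3370861, 2298 bp before Myc, was called in all 4 lists with folds of 2.83 and 3.20 in lid KD and 1.57 and 2.33 in control libraries. Its ranks of 45.8 and 50.7 in lid KD and 15.8 and 12.1 in control libraries gave the widest rise among the 132. The CG15820 member (chr3L:2174866-2175134) had 2.42 and 2.83, and the CG41128 member (chr3R:3789235-3789405) 2.25 and 2.29, in lid KD libraries alone. In the Myc pair the folds of the groups did not overlap, and the last pair had no control peak to compare.

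Of the 14 members that ranked at least 10 points lower, 3 lay at the locus of Psc and Su(z)2 described below. Their nearest genes were CG33798, Su(z)2 and CG13323. The others lay near genes of varied kinds. The widest gap, -24.2 points, was that of chr3R:3880945-3881863, near CG41099 and with a match to a ninja element. Among the others were members near knrl, a nuclear receptor gene, ptc, which encodes the Hedgehog receptor, CrebA, a secretory pathway regulator, and tara. Members near Pex7, Gprk1, CG1701, CR41519 and 2 lncRNA genes were also in this group. All of these were named after their values were seen. The member near knrl ranked 10.8 and 26.2 in lid KD and 51.2 and 43.2 in control libraries. The member near ptc ranked 28.7 and 8.34 in lid KD and 40.1 and 49.1 in control libraries. The 14 lower members had a median GC content of 54.1% and the 8 higher ones 48.9%. Besides those on 2R and near Myc described above, the higher members lay near Crtc, Samuel, Slmap, CG17493 and lncRNA:CR45791, with gaps of 10.5 to 21.9 points.

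Members were grouped along the arms. With neighbours linked at up to 10 kb, the 364 formed 238 groups, of which 27 held 3 or more members and 113 members in all, while 171 stood alone. By arm, 106 lay on 2R, 84 on 3L, 79 on 3R, 56 on 2L and 39 on X, from 4.19 members per Mb on 2R to 1.66 on X. The largest group held 15 members over 18.2 kb between lncRNA:CR44526 and SrpRbeta, downstream of hry, the pair-rule repressor hairy. Of the groups of 6, 2 lay between Su(z)2 and CG13323 and 1 beside Ppa. Groups of 5 lay beside opa, a pair-rule transcription factor gene, beside so, a homeobox gene of eye development, and near CG41099, and groups of 4 included those around Psc and beside psq. The group near CG41099 was repeat-like, with a transposable element match in 5 of 5, and none of the other groups of 4 or more had one.

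The locus of Psc and Su(z)2, paralogs of the Polycomb repressive complex 1, was the most member-rich together with that of hry. Between CG13321 and CG13323 there were 20 members over 85.8 kb, of which the lid KD lists called 16 and 16 and the control lists 20 and 19. Of these, 13 were called in all 4 lists, with median ranks of 33.9 and 29.7 in lid KD and 42.6 and 50.7 in control libraries. In 11 of the 13 the rank was lower in both lid KD libraries and in none was it higher. With no margin, 33.3% of all regions and 40.2% of members called in all 4 lists ranked lower. In 3 of the 13 the rank was lower by 10 points or more, against 3.58% of all regions and 10.6% of members. These 3 are among the 14 lower members given above. The strongest was chr2R:13042161-13042913, with folds of 4.62 and 4.70 in lid KD and 4.83 and 4.40 in control libraries, whose groups overlapped. The locus was singled out after its values were seen. The 20 members of Psc and Su(z)2 had a median GC content of 51.2%, against 53.9% of all members and 52.4% of the 132 called in all 4 lists. The part of GC content at this locus was not tested.

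Around hry, between Pex7 and SrpRbeta, there were also 20 members. The lid KD lists called 13 and 19 and the control lists 15 and 19. The 12 called in all 4 had median ranks of 34.3 and 38.2 in lid KD and 37.99 and 36.4 in control libraries, so the groups overlapped. In 3 of the 12 the rank was lower in both lid KD libraries and in 1 it was higher, against 33.3% and 20.7% of all regions. The folds stayed between 1.42 and 2.70 in lid KD and between 1.54 and 3.30 in control libraries. The difference between the 2 loci was not tested.

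**Figure D5:**
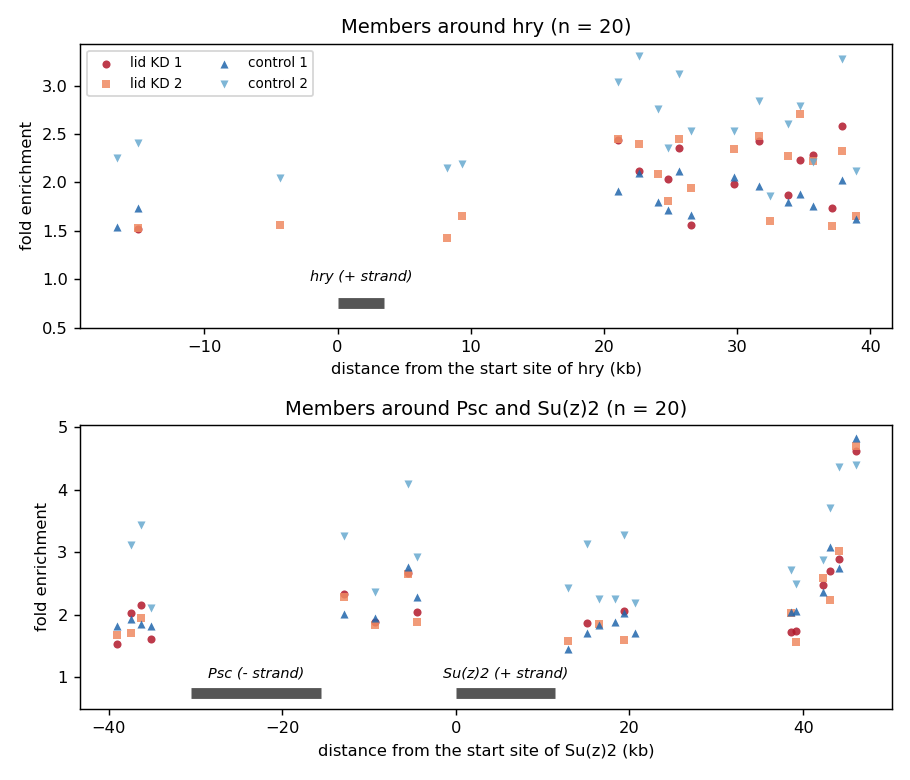
Fold enrichment of the members around hry (top, n = 20) and around Psc and Su(z)2 (bottom, n = 20) in each library, by distance (kb) from the start site of hry or Su(z)2, with gene bodies as grey bars. The members of hry cluster 20 to 40 kb downstream of its start, and the highest folds at Su(z)2, up to 4.83, lie more than 40 kb downstream of its start.

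Towards the centromere, 38 members (10.4%) lay within 2 Mb of the centromere end of an arm, which holds 7.55% of the bases of the 5 arms. The share was 0.949% of promoters and 20.2% of regions over transposable elements. The 38 lay a median of 11434.5 bp from a gene, and 22 had repeated 50-base windows. Both control lists alone called 11 of the 38, against 19.8% of all members and 5.07% of all regions called in 2 or more lists. Both lid KD lists alone called none, against 2.47% of all members and 2.79% of all regions. The 14 called in all 4 had median ranks of 26.3 and 21.5 in lid KD and 31.0 and 32.4 in control libraries. The widest member of all, chr2R:4296392-4299745, lay farther out, between IntS3 and Gprk1. It was 3354 bp wide with called widths of 2023 and 1528 bp in lid KD and 3327 and 2891 bp in control libraries, and matched gypsy8. The other 2 widest were chr2L:23370830-23372554, within the 2 Mb, and chr2R:4231220-4232774, with a gypsy8 match. In all 3 both lid KD ranks lay below both control ranks, with gaps of -13.5 to -4.79 points. With no margin, this held for 33.3% of all regions and 40.2% of members called in all 4 lists.

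The nearest gene was protein-coding for 276 members (75.8%), non-coding RNA for 73, a pseudogene for 9, a tRNA gene for 4 and an rRNA gene for 2. The start of the nearest gene faced 206 members (56.6%), at a median of 1611.5 bp, and its end faced 158, at a median of 4517 bp. Called in control lists alone were 39 of the 206 (18.9%) and 33 of the 158 (20.9%).

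Over 1000 bases, 2 core promoter motifs of broadly used fly promoters were found in fewer members than promoters. Motifs were searched on both strands in the 1000 bases around the summit of the strongest peak, in members and in the other classes in the same way. The DRE (TATCGATA) was found in 9 members (2.47%), against 12.1% of promoters and 1.29% of gene bodies, and the Ohler motif 1 core (GGTCACAC) in 4 (1.10%), against 12.1% and 1.97%. The E-box (CAGCTG) was found in 37.4% of members, 51.5% of promoters and 50.8% of gene bodies. The TATA box (TATAAA) stood in 61.0%, 60.2% and 50.1%, the initiator core (TCAGT) in 79.7%, 80.3% and 79.0%, GAGAG in 77.7%, 71.6% and 73.1%, and the Zelda motif (CAGGTAG) in 4.67%, 7.20% and 7.64%, in the same order. In 300 bases around the summit the shares were far lower in every class, with the DRE in 0.275% of members and 0.481% of promoters. A match does not mark a bound site.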

How the data were processed

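H3K4me3 ChIP-seq peak lists of 2 lid KD and 2 control ovary libraries were used. The authors aligned paired-end reads of 50 bases to dm6 with Bowtie2 2.3.3, retained only reads with a single alignment, discarded duplicates (Picard 2.17.10) and called peaks per library with MACS2 2.1.1 at a q-value of 0.1. Whether an input was supplied is not given in the sources used here. Per peak, the deposited lists give the fold enrichment (a ratio of summit pileup to background), the -log10 p and -log10 q, and a score that was not used. Summit positions were taken as deposited.

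Peaks were merged and annotated with Ensembl release 115 (BDGP6, the dm6 assembly). Summit pileup and background were solved from the authors' fold and -log10 p for at least 99.9% of peaks, a method tested on simulated peaks. The simulated peaks did not reach down to the folds of many members. In members without a transposable element match, median folds were 1.87 and 1.84 in lid KD libraries and 1.72 in control 1. These lay below the simulated folds, while the median of 2.34 in control 2 did not. Over the 132 members called in all 4 lists, medians were 2.11 and 2.14 in lid KD and 1.93 and 2.82 in control libraries. The lowest fold was 1.37 in lid KD 1. Ranks use the 12087 strongest peaks of each list. Promoter means within 500 bp of a start site. Transposable element matches used blastn 2.17.0 against annotated copies. Tests were exact two-sided permutations of library medians, with the lid KD pair as 1 sample. Alternatives were gene distance, kept transposable elements, a stricter q, 50% overlap, list length, ranking, GC classes, each library left out, and pairing. Python 3.11.15 was used.

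The members and the lists of motifs and markers were chosen with earlier results of these data known. The named members were the 10 of highest mean rank in all 4 lists, the 5 largest falls and rises, those nearest the 500 bp limit, the 3 widest, groups within 10 kb, and 1 member on 2L named in earlier work. 1 of the named falls is not reported here. Others were named after their values were seen. Intervals are not given, because the peak lists hold no read totals.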

Additional observations from a re-analysis of the deposited data

How the results depend on the processing

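The lower median rank of members in lid KD libraries kept its sign in all 15 alternatives, and the narrower width in all 13. Both counts include the lid KD libraries as separate samples and the replicate block. These repeat the main difference, so their sign could not change. No design could pass a threshold: the smallest p is 0.333 in an exact permutation with 3 or with 4 samples. The rank p was 0.667 in GC classes and with the deposited lists, and the width p 0.667 without lid KD replicate 1 (exact permutation). Leaving out 1 library at a time gave rank differences of -8.38 to -3.68 points and width differences of -88.5 to -64.5 bp. The summit coverage difference turned to 0.0795 on the log2 scale without control replicate 2 and lay at -0.42 without control replicate 1; in its other alternatives it stayed negative. Members ranked higher by 10 points numbered 5 of 102 (4.90%) at 1000 bp and 3 of 69 (4.35%) at 2000 bp from a gene, against 4.42% of all regions. They numbered 2 of 132 with the deposited lists (1.52%, against 0.921%), 3 of 132 with ranks by -log10 p (2.27%, against 1.90%), and 10 to 39 without 1 library. Members ranked lower numbered 9 of 69 at 2000 bp (13.0%) and 25 of 173 with transposable elements kept (14.5%), both against 3.58% of all regions, and 34 to 50 without 1 library, where fewer lists must agree and the share of all regions was 6.40% to 12.8%. At 2000 bp from a gene 192 members met the rule, and leaving out 1 library, added after seeing the data, left 251 to 336. The rank difference from promoters was -37.4 to -33.8 points without 1 library.

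In 300 bases around the summit the motif shares of members were 7.14% for the TATA box (9.87% in promoters), 36.0% for the initiator core (35.5%), 0.275% for the DRE (0.481%), 0.275% for the Ohler motif 1 core (1.47%), 18.7% for the E-box (22.6%), 42.0% for GAGAG (34.6%) and 1.37% for the Zelda motif (2.52%). In gene bodies the DRE was in 0.179%. Replicate numbers do not pair the libraries by any label. The correlation of replicate differences between the groups was 0.08 over 8779 regions. With a replicate block the rank difference was -7.09 points (p = 0.5 in an exact sign permutation, the smallest possible), the width difference -66.75 bp and the coverage difference -0.18. Peaks below the threshold are absent from the lists, so a missing call is no measure of 0.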
